A study of Mus musculus with 8 samples.

Results

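The genes described are 8 transcription factors of spermatogonial stem cells, Zbtb16, Sall4, Glis3, Foxo1, Pax7, Eomes, Id4 and Taf4b, taken by name from a table of 17589 genes and 45550 transcript entries. All 8 were found, with 15 transcript entries in all. RNA came from germ cells of C57BL/6 mice at 6 days after birth, 4 libraries from animals labelled KDM1A KO and 4 from animals labelled Control. Every library carried the GOF/deltaPE-Oct4/GFP reporter, by which the cells were sorted from digested testes. The protocol calls the knockout conditional (Kdm1a-cKO), and the sources used here do not name the Cre line that deletes Kdm1a. Nothing in the labels says whether each library is a separate animal, so the p-values measure only the spread between these libraries, which may be technical.

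Spermatogonial stem cells are the male germ cells that divide to renew their own pool and to give rise to progenitors, which later enter meiosis. A network of transcription factors keeps them undifferentiated: zinc finger proteins such as PLZF, the product of Zbtb16, and SALL4 act in the same cells, FOXO1 is held in check by PI3K and AKT signalling, and ID4, PAX7 and EOMES mark subsets of the pool. KDM1A removes methyl groups from lysine 4 of histone H3 and works with corepressor complexes at genes that such factors bind.

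Sall4 was the member with the most transcript entries, and its entries differ in whether they hold a long second exon. Sall4-201 and Sall4-203 keep all or part of this exon, Sall4-206 and Sall4-207 are short entries that lie partly or wholly within it, and Sall4-202 joins the first exon straight to the exon after it. The junctions are shown because the results for Sall4 turn on them. Each line gives 25 bases before the junction in lower case and 25 bases after it in capitals, read 5′ to 3′ on the minus strand of chromosome 2 in GRCm38 (GENCODE M21 transcripts). The exon before the junction ends at 168766912 in Sall4-201 and Sall4-202 and at 168755766 in Sall4-203. The exon after it starts at 168756800 in Sall4-201 and at 168752740 in Sall4-202 and Sall4-203.
Sall4-201: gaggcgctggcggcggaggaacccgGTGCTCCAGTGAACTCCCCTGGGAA
Sall4-202: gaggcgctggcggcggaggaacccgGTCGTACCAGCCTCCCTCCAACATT
Sall4-203: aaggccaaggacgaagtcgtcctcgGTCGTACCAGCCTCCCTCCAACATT
The bases before the junction are the same in Sall4-201 and Sall4-202, and the bases after it are the same in Sall4-202 and Sall4-203. Fragments that fall outside this exon and these junctions can therefore be assigned to several entries. So can fragments within the exon, where Sall4-203, Sall4-206 and Sall4-207 share sequence with Sall4-201. The split among the entries is an estimate of Cufflinks.

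Promoters were available for Id4, Glis3, Foxo1, Eomes and Pax7 (RefSeq, GRCm38.p6, 250 bases before to 50 after the start of the gene). Those of Glis3 and Foxo1 are printed because both genes fell in the knockout in the main test. Pax7, too low for that test, also fell in a fit with no filter on low values, and its window is not printed. Capitals mark the E-box CANNTG, which bHLH proteins recognise, the class of protein that ID4 holds back from DNA. The Glis3 window is chr19:28680028-28680327 on the minus strand, and the Foxo1 window is chr3:52268087-52268386 on the plus strand.
Glis3: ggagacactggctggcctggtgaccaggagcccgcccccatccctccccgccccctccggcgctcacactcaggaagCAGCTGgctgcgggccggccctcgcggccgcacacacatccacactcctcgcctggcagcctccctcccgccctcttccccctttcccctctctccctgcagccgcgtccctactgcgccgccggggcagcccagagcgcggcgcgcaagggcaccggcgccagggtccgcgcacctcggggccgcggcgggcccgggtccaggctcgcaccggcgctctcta
Foxo1: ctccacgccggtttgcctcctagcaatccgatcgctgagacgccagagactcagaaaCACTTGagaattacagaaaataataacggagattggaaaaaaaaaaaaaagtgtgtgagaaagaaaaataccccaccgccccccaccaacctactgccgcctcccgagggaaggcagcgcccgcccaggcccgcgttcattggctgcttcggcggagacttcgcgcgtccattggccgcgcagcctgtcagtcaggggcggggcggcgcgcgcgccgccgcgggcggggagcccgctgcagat
Both windows held 1 match to CANNTG, at -172 from the start in Glis3 and at -192 in Foxo1, while those of Id4, Eomes and Pax7 held 0. Of 32851 promoter windows of the same length, 72.3% held at least 1, so a match is common. The FOXO motif GTAAACA, the octamer ATGCAAAT and the T-box motif AGGTGTGA, searched on both strands, occurred in 3.65%, 1.74% and 1.28% of all windows and in 0 of the 5 members' windows. The Glis3 and Id4 windows were rich in G and C, at 76.3% and 73.3%, against a median of 52.7% over all windows, and the Eomes window held 47.3%.

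Levels are in FPKM, which counts sequenced fragments per kilobase of a transcript, scaled by library, summed over the entries of each gene. Kdm1a was at 15.1 ± 1.49 FPKM in the knockouts and 61.9 ± 20.2 in the controls (SD, n = 4 each), so the groups matched their labels. The germ cell marker Ddx4 averaged 187 FPKM in the knockouts and 198 in the controls, while among the other germ cell markers Ret and Nanos3 fell and Tex101 rose (log2 changes -0.75, -1.09 and 0.69, adjusted p = 0.00754, 0.0104 and 0.0162). Knockout replicate 2 stood apart from the other libraries: 1642 of its entries were listed at 0, against 506 to 734 elsewhere. Of all FPKM, the entry Mir5105 made up 29.4% to 52.7% in the knockouts and 61.3% to 77.1% in the controls, which matters wherever a library is scaled to its total. Markers of other testis cells were detected. All 10 germ cell markers summed to 1108 to 1364 FPKM in the knockouts and 1091 to 1287 in the controls. The 10 Sertoli markers summed to 141.5 to 172.8 FPKM in the knockouts and 70.6 to 110.1 in the controls. Most of it was Ctsl, which rose (adjusted p = 0.00177 by limma). Clu, Inha and Amh averaged 21.4, 7.89 and 4.63 in the knockouts, against 12.3, 3.76 and 2.35 in the controls. They were not called (adjusted p = 0.106 to 0.110 by limma). Cldn11 was slightly lower in the knockouts, at 1.22 against 1.32. Sox9, too low to test, averaged 0.767 in the knockouts and 0.517 in the controls. Control replicate 1 held Clu at 25.1 FPKM, against 7.05 to 9.62 in the other controls. The 5 endothelial markers measured summed to 11.8 to 12.5 FPKM in the knockouts and 4.00 to 5.76 in the controls, and Pecam1 and Tek rose (adjusted p = 8.46e-05 and 0.000115 by limma). Cdh5 was not called (means 2.08 in the knockouts and 1.86 in the controls, adjusted p = 0.461 by limma). Kdr and Emcn, too low to test, averaged 0.833 and 0.556 in the knockouts, against 0.811 and 0.0865 in the controls. The 8 peritubular and stromal markers summed to 25.04 to 29.2 FPKM in the knockouts and 36.3 to 46.8 in the controls, most of it Col1a1, which fell to a mean of 15.6 in the knockouts, against 28.7 in the controls (adjusted p = 5.19e-05 by limma). The list's mean log2 difference was 0.03. Summed levels of the 4 macrophage and blood markers used here lay at 3.45 to 5.98 FPKM in the knockouts and 2.75 to 3.43 in the controls. Alas2 averaged 1.65 in the knockouts, against 0.289 in the controls, and Cd14 0.824, against 0.559. Cd68 and Hbb-b1 were lower in the knockouts, at 1.62 and 0.234, against 1.89 and 0.268 in the controls, and Cd68 was not called (adjusted p = 0.477 by limma). The 1 Leydig marker used here, Star, lay at 1.23 to 1.83 in the knockouts and 1.24 to 2.16 in the controls. No difference in mean log2 level passed adjustment over the 6 marker lists (exact permutation test, adjusted p = 0.0857 for the endothelial and for the macrophage and blood lists and 0.171 or more for the others). Which part these cells had in the results on the stem cell factors was not tested. In sorted cells measured in bulk, fewer cells of a type and less RNA per cell cannot be told apart.

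Zbtb16, Sall4, Glis3 and Foxo1 fell in the knockout, and Id4, Taf4b and Eomes were not called. A call means a Benjamini-Hochberg adjusted p under 0.05 over the 13483 genes whose mean FPKM reached 1, by limma on log2(FPKM + 1). The 4 falls were among 7 members that passed this filter, and 12.1% of all tested genes fell. In those 4 genes the knockout libraries all lay under the control libraries, as they did in 12.5% of all tested genes (groups were apart in either direction in 38.6%). Among transcript entries of the members, 12 of 15 passed the same filter and 6 fell, against 5.93% of the 26612 entries tested. These entries belong to the same genes as the 4 falls, and Sall4-206 and Sall4-207 share exon sequence with Sall4-201. The entry count is therefore not independent of the gene calls. Pax7, the eighth member, was under the filter at a mean of 0.659 FPKM and is described below with its own test. The members together summed to 175 ± 4.72 FPKM in the knockouts and 272 ± 19.5 in the controls.

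**Figure D1:**
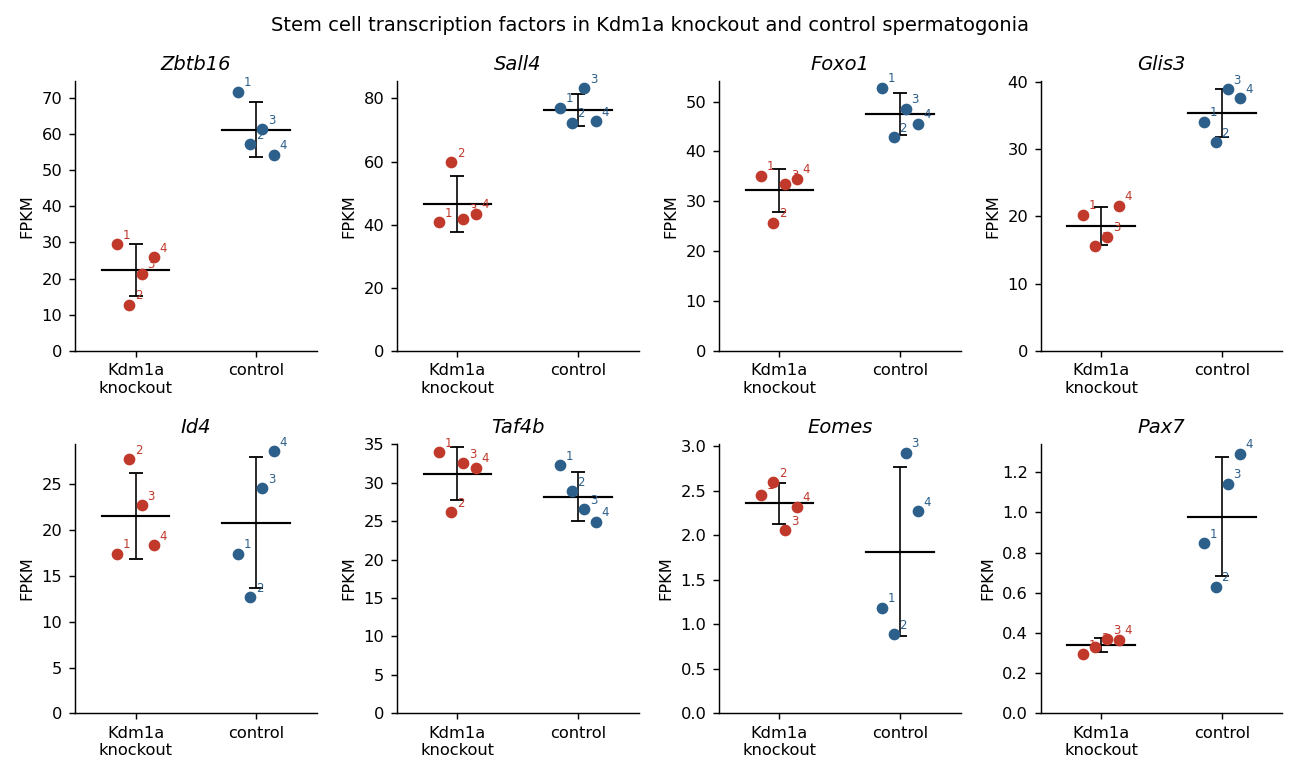
FPKM of the 8 transcription factors in each library, knockouts on the left and controls on the right of each panel, with points numbered by replicate, horizontal lines at the mean and error bars of 1 SD (4 libraries a group). Knockout points of Zbtb16, Sall4, Foxo1, Glis3 and Pax7 lie under every control point, and the groups overlap in Id4, Taf4b and Eomes.

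Zbtb16 had the largest fall of the 7 members tested. It encodes PLZF, a BTB zinc finger repressor needed for stem cell maintenance, and spans chr9:48654297-48836222 on the minus strand (GRCm38, as are the other positions). Its FPKM was 29.5, 12.8, 21.3 and 25.9 in knockout replicates 1 to 4 and 71.8, 57.3, 61.3 and 54.3 in control replicates 1 to 4. Every knockout library was under the lowest control, and replicate 2 was the lowest of all. The knockout mean was 36.5% of the control mean, a log2 change of -1.47 (SE 0.221, adjusted p = 0.000890). Without knockout replicate 2 the log2 change was -1.23 (adjusted p = 0.000125). With the libraries set to equal FPKM totals it was -0.76 and still called (adjusted p = 0.00563), and no other member above the filter fell under every scaling tried.

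Sall4, whose product binds PLZF and the NuRD complex, spans chr2:168748332-168767943 on the minus strand. Summed over its 5 entries it was at 40.8, 59.8, 41.9 and 43.4 FPKM in knockout replicates 1 to 4 and 77.1, 72.2, 83.2 and 72.9 in control replicates 1 to 4. The knockout values all lay lower, with replicate 2 closest to the controls. The log2 change was -0.72 (SE 0.123, adjusted p = 0.00175), or 1.64-fold lower by means.

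The entries of Sall4 did not all move alike. Sall4-201, which keeps the whole long exon, was at 28.04, 14.1, 22.7 and 23.5 FPKM in knockout replicates 1 to 4 and 51.4, 48.2, 48.0 and 37.5 in control replicates 1 to 4, so that the groups were apart (log2 change -1.06, adjusted p = 0.00763 over 26612 entries). Sall4-206 fell to 2.58 ± 1.28 FPKM in the knockouts, against 7.04 ± 1.30 in the controls, and Sall4-207 to 0.744 ± 0.423, against 2.18 ± 0.196 in the controls (adjusted p = 0.0148 and 0.0112). Sall4-203 was too low for the filter, at 0.200 ± 0.101 FPKM in the knockouts and 0.413 ± 0.146 in the controls.

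Sall4-202, which skips the long exon, was at 6.97, 44.3, 15.7 and 16.3 FPKM in knockout replicates 1 to 4 and 14.8, 14.8, 25.02 and 27.2 in control replicates 1 to 4. Its groups overlapped, since knockout replicate 2 held the highest value of the 8 libraries and knockout replicate 1 the lowest. It was not called (log2 change -0.20, 95% interval -1.28 to 0.88, adjusted p = 0.799), and without knockout replicate 2 the log2 change was -0.64 (adjusted p = 0.200). The 4 other entries, which hold sequence that Sall4-202 skips, summed to 25.6 ± 7.58 FPKM in the knockouts and 55.9 ± 7.14 in the controls. Sall4-201 held 68.8%, 23.6%, 54.3% and 54.3% of Sall4 FPKM in knockout replicates 1 to 4 and 66.7%, 66.7%, 57.7% and 51.5% in control replicates 1 to 4. These shares overlapped, and the difference of -10.4 points was not called (exact two-sided permutation test over 70 assignments, p = 0.429, adjusted p = 0.543 over 2 genes). Without knockout replicate 2 the difference was -1.55 points. Over 6084 genes with several entries, the FPKM-weighted entry length in a library, relative to the gene's mean over the 8 libraries, had a median of 0.998 to 1.004, and knockout replicate 2 was at 1.004. A median over genes cannot show a shift confined to some of them. What lay behind the Sall4 shares of that library was not tested.

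**Figure D2:**
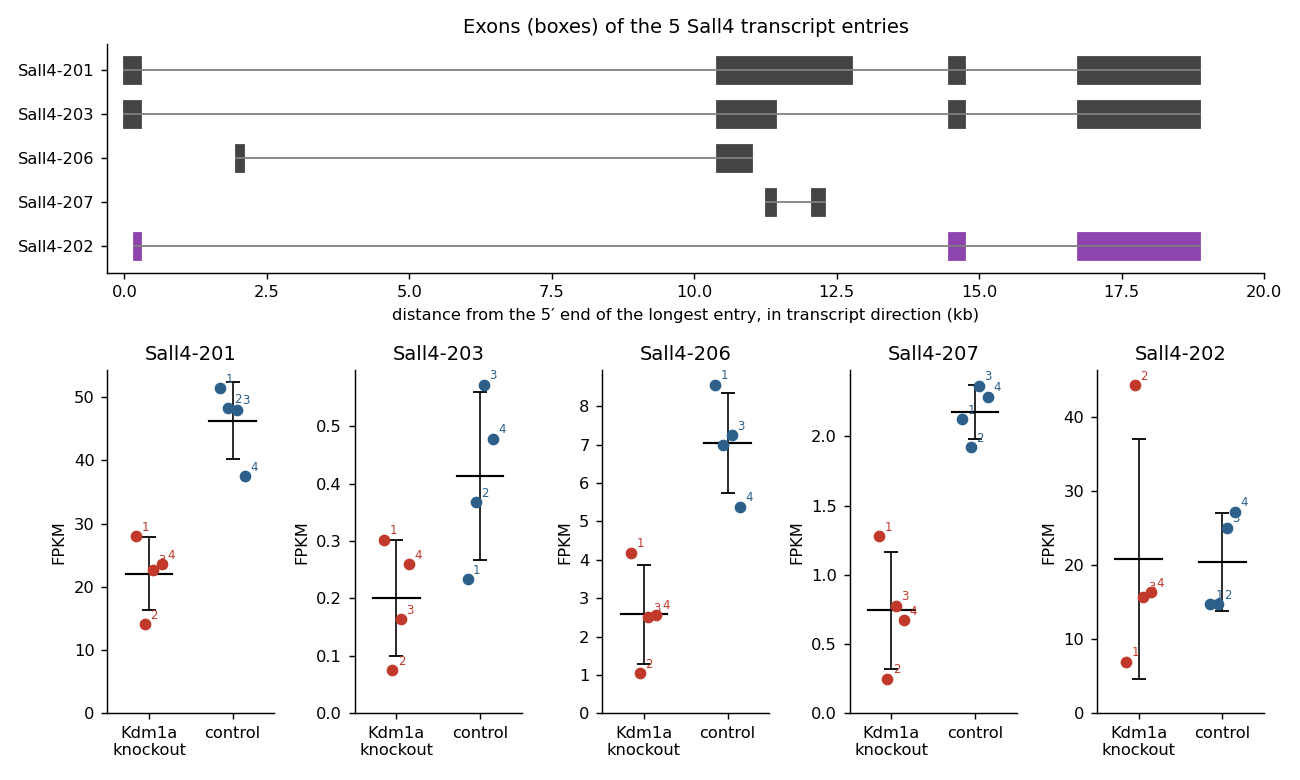
Exons of the 5 Sall4 transcript entries, in kb from the 5′ end (top), and FPKM of each entry per library (bottom), knockouts left of controls, points numbered by replicate, with means and SD (n = 4 per group). The groups are apart for Sall4-201, Sall4-206 and Sall4-207 and overlap for Sall4-203 and for Sall4-202, where knockout replicate 2 is at 44.3.

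Glis3 encodes a zinc finger protein related to the GLI factors, which in mice is needed to form the undifferentiated pool after birth. It spans chr19:28258851-28680077 on the minus strand. It was at 20.2, 15.5, 16.9 and 21.6 FPKM in knockout replicates 1 to 4 and 34.1, 31.0, 38.9 and 37.6 in control replicates 1 to 4. The groups were apart, and the log2 change was -0.90 (SE 0.118, adjusted p = 0.000425), 1.91-fold lower by means. Nearly all of the signal was Glis3-209, an entry of 11 exons that held 91.3% ± 5.18 of Glis3 FPKM in the knockouts and 89.2% ± 3.36 in the controls (exact permutation test, p = 0.543, adjusted p = 0.543). It fell to 16.9 ± 2.21 FPKM in the knockouts, against 31.6 ± 4.28 in the controls (adjusted p = 0.00271). Glis3-201, annotated as a target of nonsense-mediated decay, was at 1.04 FPKM in knockout replicate 1, listed at 0 in replicate 2, and at 0.0366 and 0.120 in replicates 3 and 4. It was at 3.31, 2.43, 1.25 and 0.480 in control replicates 1 to 4 and was not called (log2 change -1.09, adjusted p = 0.0693). Glis3-206, a non-coding entry, averaged 1.11 ± 0.580 FPKM in the knockouts and 1.54 ± 0.760 in the controls and was not called either (adjusted p = 0.589).

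Foxo1, the forkhead factor that AKT keeps out of the nucleus, spans chr3:52268336-52353221 on the plus strand and had a single entry. It was at 35.1, 25.7, 33.4 and 34.5 FPKM in knockout replicates 1 to 4 and 52.8, 42.9, 48.6 and 45.5 in control replicates 1 to 4. The groups did not overlap, and the knockout mean was 67.8% of the control mean (log2 change -0.55, SE 0.113, adjusted p = 0.00453). Its relatives were lower or not called in the deposited FPKM. Foxo3 fell to 16.1 ± 1.61 FPKM in the knockouts, against 32.0 ± 2.31 in the controls (adjusted p = 6.69e-05), and Foxo6 to 4.08 ± 0.496 in the knockouts, against 8.75 ± 1.76 in the controls (adjusted p = 0.000993). Foxo4 was not called (log2 change -0.20, adjusted p = 0.139). Among FOXO relatives and genes of the PI3K and AKT pathway, 5 of 13 tested fell, 0 rose and 8 were not called, with a median log2 change of -0.20, against 0.09 over all genes, of which 12.1% fell and 25.3% rose. The kinase gene Akt1 fell to 23.1 ± 0.984 FPKM in the knockouts, against 43.2 ± 8.32 in the controls, and Pik3r2, a regulatory subunit of PI3K, to 33.2 ± 1.69, against 48.4 ± 4.36 (adjusted p = 0.000762 and 0.00115). After median-ratio scaling, quantile normalization, and removal of small RNA genes before scaling, 8, 7 and 6 of the 13 fell and 0 rose. Over all genes tested at these settings, 2451 of 13473, 2648 of 13483 and 2038 of 13238 fell. With equal totals 0 of the 13 fell and 6 rose, Pik3r2 had the opposite sign, and Foxo3, Foxo6 and Akt1 lost their calls. At that setting 9808 of all 13781 genes tested rose and 147 fell.

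Pax7 encodes a paired-box factor that marks a scarce stem cell subset in the newborn mouse testis, and spans chr4:139737062-139833528 on the minus strand. It was at 0.295, 0.330, 0.368 and 0.367 FPKM in knockout replicates 1 to 4 and 0.847, 0.630, 1.14 and 1.29 in control replicates 1 to 4. All knockout libraries were lower and close together, while the controls spread 2.05-fold. From the depth inferred for each library these values stand for about 85.5 to 124 fragments in the knockouts and 227.5 to 447.7 in the controls. Fitted with no filter on low values, Pax7 fell (log2 change -0.55, SE 0.105, adjusted p = 0.00326 over 17589 genes, of which 11.4% fell). On this scale the pseudocount of 1 understates the change, and by means Pax7 was 2.88-fold lower in the knockouts.

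Eomes, a T-box factor that in mice marks stem cells of the undifferentiated pool, spans chr9:118478212-118486132 on the plus strand. It was at 2.46, 2.59, 2.06 and 2.32 FPKM in knockout replicates 1 to 4 and 1.19, 0.886, 2.92 and 2.27 in control replicates 1 to 4. The knockout values lay inside the range of the controls. Eomes was not called (log2 change 0.31, 95% interval -0.17 to 0.80, adjusted p = 0.285).

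Id4 encodes an inhibitor of bHLH factors whose level is high in stem cells, and spans chr13:48261228-48266026 on the plus strand. It was at 17.4, 27.7, 22.7 and 18.4 FPKM in knockout replicates 1 to 4 and 17.4, 12.7, 24.5 and 28.6 in control replicates 1 to 4. The groups overlapped, with the controls reaching both lower and higher than the knockouts, and Id4 was not called (log2 change 0.09, 95% interval -0.45 to 0.63, adjusted p = 0.801). Of the 6 genes for other ID proteins and for E proteins, their bHLH partners, 3 rose, 1 fell and 2 were not called, with a median log2 change of 0.17, where 25.3% of all genes rose and 12.1% fell with a median of 0.09. The abundant partner Tcf3 fell to 69.2 ± 3.50 FPKM in the knockouts, against 95.7 ± 4.13 in the controls (adjusted p = 0.00101), while Id1 rose to 4.77 ± 0.913, against 2.57 ± 0.267 (adjusted p = 0.00227). Id2 and Tcf4 also rose, by log2 changes of 0.67 and 0.28 (adjusted p = 0.0488 and 0.0342). After median-ratio scaling, however, 1 gene of this list rose and 1 fell. With equal totals 4 rose, 0 fell and Tcf3 had the opposite sign, where 9808 of all 13781 genes tested rose and 147 fell.

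Taf4b encodes a gonad-enriched subunit of TFIID, the complex that places RNA polymerase II at promoters, and in mice is needed to keep the germ line. It was at 34.0, 26.2, 32.5 and 31.9 FPKM in knockout replicates 1 to 4 and 32.3, 28.9, 26.5 and 24.9 in control replicates 1 to 4. The groups overlapped and the gene was not called (log2 change 0.14, 95% interval -0.10 to 0.38, adjusted p = 0.337), although with limma's array weights it was (log2 change 0.24, adjusted p = 0.0143). Among other subunits of TFIID and TFIIA-like factors, 18 were tested, of which 4 rose, 2 fell and 12 did not pass, with a median of 0.11, against 25.3% that rose and 12.1% that fell over all genes and a median of 0.09. These shares are close to the background. Gtf2a2, a subunit of TFIIA, rose to 55.7 ± 7.87 FPKM in the knockouts, against 33.45 ± 2.23 in the controls, and Taf13 to 27.2 ± 1.18, against 18.4 ± 1.48 (adjusted p = 0.000824 and 0.000791). Taf9b rose (adjusted p = 0.00534) and Taf1, the largest subunit, fell by 0.26 on the log2 scale (adjusted p = 0.0198). After median-ratio scaling 3 of the 18 rose and 4 fell, and with equal totals 14 rose, 0 fell and Taf1 had the opposite sign. Over all 13781 genes tested with equal totals, 9808 rose and 147 fell.

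How the libraries were scaled set how the members read, so changes were also taken relative to each other. Over all genes the median log2 change came to 0.09 in the deposited FPKM, -0.01 after median-ratio scaling and 0.74 with equal totals. With equal totals Zbtb16 alone fell among the 7 members, while Id4, Eomes and Taf4b rose (log2 changes 0.78, 0.81 and 0.84, adjusted p = 0.00515, 0.000744 and 0.00236). Of all 13781 genes tested at that setting, 9808 rose and 147 fell, so a rise there is common. Glis3 and Sall4 lost their calls there (-0.20 and -0.01, adjusted p = 0.460 and 0.977), and Foxo1 had the opposite sign (0.15, adjusted p = 0.576). After median-ratio scaling, quantile normalization, or removal of small RNA genes before scaling, the 4 falls were called and no member rose.

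**Figure D3:**
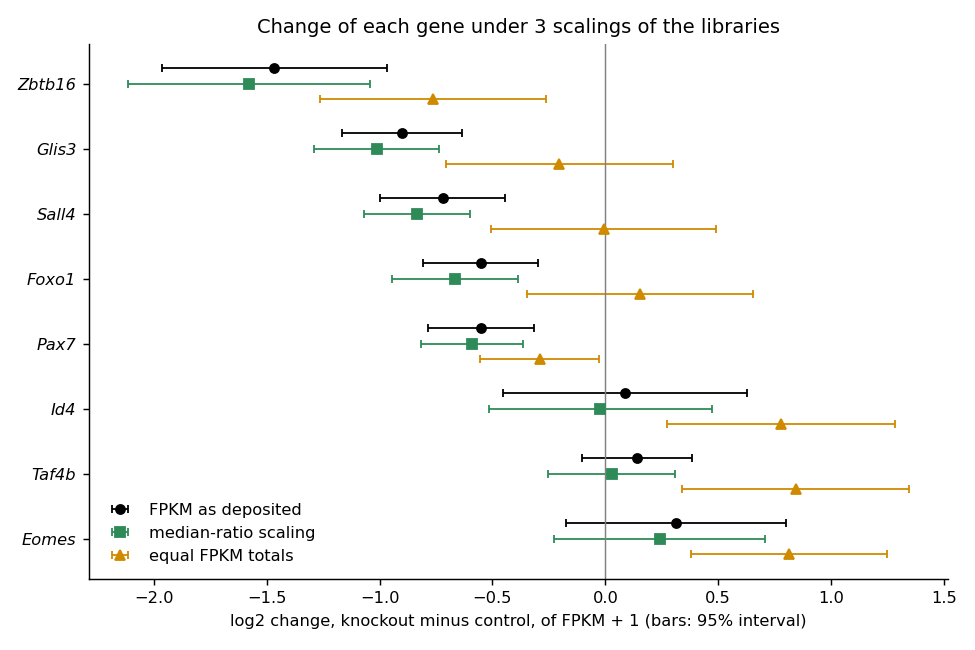
Log2 change of each gene, knockout minus control, with its 95% interval, for FPKM as deposited (circles), after median-ratio scaling (squares) and with equal FPKM totals (triangles). Pax7 is from fits with no filter on low values. Equal totals move every gene to the right, and Zbtb16 and Pax7 are the genes whose 3 intervals all lie under 0.

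The ratio of 2 members in the same library does not depend on scaling. Among the 7 members above the filter, 21 pairs were compared by exact two-sided permutation tests over 70 assignments, whose smallest p is 0.0286, and 14 pairs differed (p = 0.0286, adjusted p = 0.0429 over the 21 pairs). Zbtb16 was at 0.867, 0.487, 0.656 and 0.810 times the FPKM of Taf4b in knockout replicates 1 to 4, and 2.22, 1.99, 2.31 and 2.18 times in control replicates 1 to 4. Zbtb16 was thus under Taf4b in every knockout library and above it in every control library. Foxo1 was nearly level with Taf4b in the knockouts, at ratios of 0.983 to 1.08, against 1.49 to 1.83 in the controls. Id4 over Zbtb16 was at 0.591, 2.18, 1.06 and 0.711 in knockout replicates 1 to 4, and 0.243, 0.221, 0.400 and 0.527 in control replicates 1 to 4, and the groups were apart.

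The pairs use the same libraries as the calls above and are not independent of them. Of 12 pairs of a fallen member with one that was not called, 11 differed. The same libraries sorted the members into fallen and not called, so this count adds no support to the calls. All 14 pairs that differed sit at the smallest p of the test, so their adjusted p depends on how many pairs tie there. The share of all gene pairs that would differ is not given here. Id4 over Foxo1 did not pass (log2 difference 0.66, exact permutation p = 0.143, adjusted p = 0.176). The falls also differed in size among themselves. Zbtb16 fell relative to Foxo1 and to Sall4, by 0.94 and 0.78 on the log2 scale, and Glis3 fell by 0.37 relative to Foxo1. Without knockout replicate 2, the library with high Sall4, the log2 difference of Zbtb16 over Sall4 was -0.40. Zbtb16 over Glis3 did not pass (exact permutation p = 0.0571, adjusted p = 0.0800), nor did Glis3 and Foxo1 each over Sall4 (adjusted p = 0.600 and 0.630), nor the pairs among Id4, Eomes and Taf4b (adjusted p = 0.150 to 0.886).

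**Figure D4:**
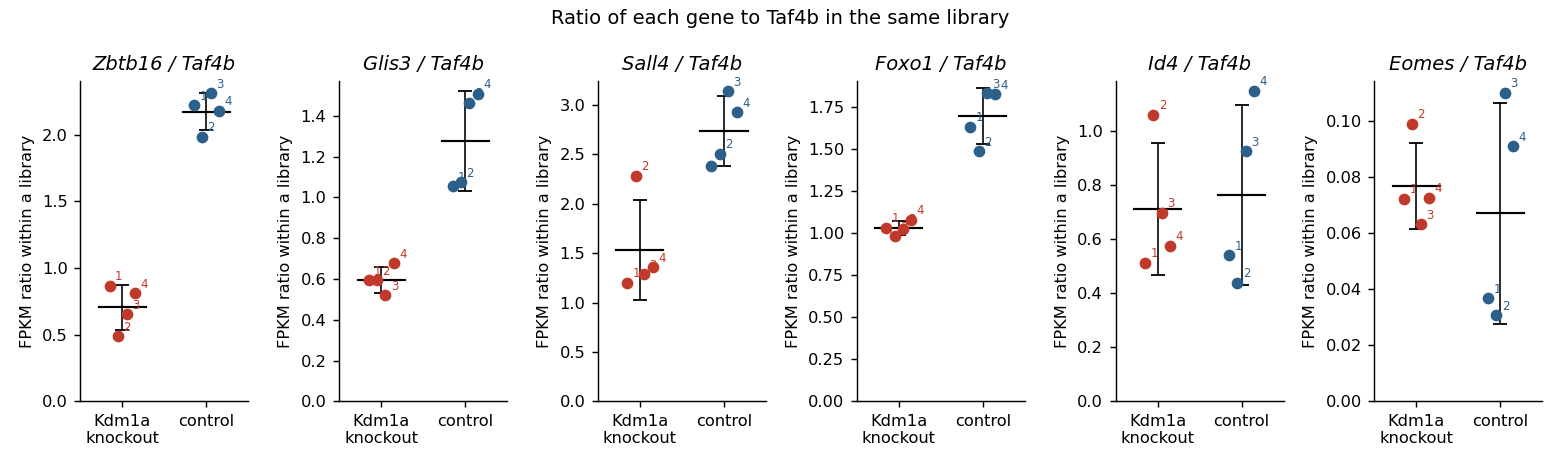
FPKM of each gene divided by that of Taf4b in the same library, knockouts left of controls, points numbered by replicate, with means and SD (n = 4 per group). The groups are apart for Zbtb16, Glis3, Sall4 and Foxo1 and overlap for Id4 and Eomes.

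Levels per length followed a different order in each group. In the knockouts the means ran from Sall4 (46.4 FPKM) through Foxo1 (32.2), Taf4b (31.1), Zbtb16 (22.3), Id4 (21.6), Glis3 (18.6) and Eomes (2.36) to Pax7 (0.340). In the controls they ran from Sall4 (76.4) through Zbtb16 (61.2), Foxo1 (47.5), Glis3 (35.4), Taf4b (28.2), Id4 (20.8) and Eomes (1.82) to Pax7 (0.978). Neighbours from Foxo1 to Glis3 in the knockout order overlapped in their ranges, while in the controls Sall4, Zbtb16, Foxo1 and Glis3 were each apart from the next of these, and Glis3 with Taf4b, Taf4b with Id4, and Eomes with Pax7 overlapped. Spread between libraries was smallest in Sall4 among the controls (coefficient of variation 6.63%) and widest in Eomes (52.1%), and in the knockouts Zbtb16 varied most, at 32.3%.

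Other regulators of undifferentiated spermatogonia were read beside the members. Of 21 tested, 9 fell, 2 rose and 10 were not called, with a median log2 change of -0.34, against 0.09 over all genes. Of all tested genes, 12.1% fell and 25.3% rose. Neurog3, a bHLH factor of progenitors, fell to 0.351 ± 0.114 FPKM in the knockouts, against 9.78 ± 2.79 in the controls, and Lin28a, an RNA-binding protein, to 36.2 ± 1.99, against 74.3 ± 6.61 (adjusted p = 6.77e-06 and 3.08e-05). Pou3f1, Sox3, Egr2, Egr4, Etv5, Nanos2 and Nanos3 were the other falls, with log2 changes of -1.09 to -0.41. Bcl6b, a zinc finger repressor that responds to GDNF, rose to 41.8 ± 6.37 FPKM in the knockouts, against 23.3 ± 2.46 in the controls, and Sohlh2, which drives differentiation, to 101.5 ± 14.7, against 52.9 ± 5.01 (adjusted p = 0.00103 and 0.000366). After median-ratio scaling, quantile normalization, and removal of small RNA genes before scaling, 11, 11 and 10 of the 21 fell and 2 rose each time. Over all genes tested at these settings, 2451 of 13473, 2648 of 13483 and 2038 of 13238 fell. With equal totals 6 rose and 1, Neurog3, fell, and the median lay 0.45 under that of all genes. At that setting 9808 of all 13781 genes tested rose and 147 fell.

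**Figure D5:**
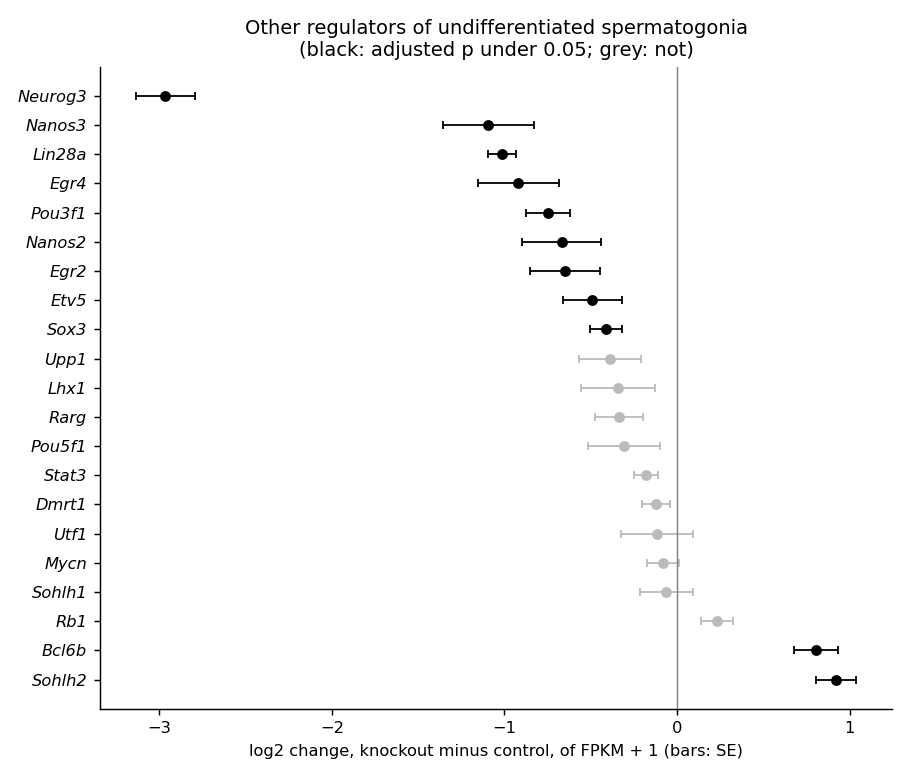
Log2 change, knockout minus control, of 21 other regulators of undifferentiated spermatogonia, with SE as bars, black where the adjusted p is under 0.05 and grey where it is not. Neurog3 is at -2.97, and Bcl6b and Sohlh2 are the black points above 0.

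Among genes reported as targets or partners of PLZF and SALL4, 5 of 15 tested fell, 2 rose and 8 were not called, where 12.1% of all genes fell and 25.3% rose. The list's median log2 change was -0.19, against 0.09 over all genes. Foxo1, itself on this list, is counted among the falls. Ddit4, an inhibitor of mTORC1 that PLZF activates in mouse spermatogonia, fell to 9.98 ± 1.90 FPKM in the knockouts, against 21.6 ± 3.49 in the controls (adjusted p = 0.000695). The cell cycle inhibitor Cdkn1a rose to 6.93 ± 1.11 FPKM in the knockouts, against 3.17 ± 0.674 in the controls (adjusted p = 0.00120). Kit, which PLZF represses in mouse spermatogonia and which was named after its values were seen, was at 26.7 ± 7.68 FPKM in the knockouts and 45.9 ± 16.4 in the controls and did not pass (log2 change -0.74, adjusted p = 0.0710). After median-ratio scaling, quantile normalization, and removal of small RNA genes before scaling, 7, 6 and 6 of the 15 fell and 2 rose each time. Over all genes tested at these settings, 2451 of 13473, 2648 of 13483 and 2038 of 13238 fell. Under equal totals 7 of the 15 rose and 0 fell, and Ddit4 lost its call, where 9808 of all 13781 genes tested rose and 147 fell.

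The profiles most like each member were sought among 8794 protein-coding genes whose mean reached 5 FPKM, by the root-mean-square difference of log2(FPKM + 1) over the 8 libraries after each gene was centred on its own mean. Nearest to Sall4 were Rras and Pou3f1, which differed from it by 0.08 log2 units each. Slx4 and Zbed4 lay 0.06 from Foxo1, Kdm4a and Gnb1 0.09 from Glis3, and Taf2 and Net1 0.04 from Taf4b. Cd9 was nearest to Id4 at 0.09 and Rhebl1 followed at 0.12. Zbtb16 had no neighbour as close in log2 units, with Prrc2b at 0.21 and Mll2 at 0.23. Its spread around its own mean was also the widest, at 0.80, against 0.15 (Taf4b) to 0.48 (Glis3) in the others. A wider spread allows larger differences, so these distances do not set Zbtb16 apart. The members share libraries and depth, so such likeness is a description only.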

How the data were processed

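The members and gene lists were chosen with earlier results of these data known, so their counts are descriptions and not independent evidence. The authors deposited FPKM for 45550 transcript entries in 8 libraries. The submitters' processing notes name mm10, Cufflinks, Cuffdiff, Bowtie and TopHat; the sources used here give no versions, annotation release or filters. Entry types, lengths and positions came from GENCODE M21 on GRCm38, where 17257 genes and 44291 entries matched.

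FPKM are not counts, so no count model was used. Depth was inferred from the steps between low FPKM: 45500000 to 63000000 fragments in the knockouts and 60750000 to 67000000 in the controls, at which 62.0% to 66.8% of values up to 20 fragments lay within 0.1 of a whole number. Depth and a length offset were chosen in each library to make this share as large as possible. For a depth not chosen in this way, 20% would lie there by chance.

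Entries were summed by gene identifier and genes whose mean reached 1 FPKM were tested on log2(FPKM + 1), which understates changes of low genes, by limma 3.58.1 in R 4.3.3 with an intensity trend, group alone in the model, two-sided, adjusted over all genes. The procedure was tested on simulated data. Shares, ratios and marker levels used exact permutation tests (scipy 1.17.1). Named genes were the members, Kdm1a, up to 4 called genes of each list by adjusted p, and the 2 nearest profiles; others were named to complete a count or after their values were seen. A result that this rule would name is not reported here. Some members overlap annotated genes on the other strand, Foxo1 with Gm20402 at 3.01 FPKM, and how strand was used in counting is not stated.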

Additional observations from a re-analysis of the deposited data

Results flagged for a closer look

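Among 36 groups of 4 values for the members, the Sall4 and Glis3 entries and Kdm1a, 4 held a library far from the other 3, where chance flags about 1 in 20 groups. Sall4 in knockout replicate 2 was at 59.8 FPKM, against 40.8 to 43.4 in the other knockouts, and without it the fall of Sall4 was larger (log2 change -0.84, adjusted p = 4.11e-05). Kdm1a in control replicate 3 was at 92.0 FPKM, against 48.1 to 54.0 in the other controls. Glis3-201 in knockout replicate 1 was at 1.04 FPKM, and without that library the entry was called (log2 change -1.33, adjusted p = 0.0343), as it also was without control replicate 4 (log2 change -1.37, adjusted p = 0.0294). Glis3-206 in control replicate 1 was at 0.406 FPKM, against 1.82 to 1.98 in the other controls.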

How the results depend on the processing

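The falls of Zbtb16, Sall4, Glis3 and Foxo1 were called under all 22 alternatives except equal totals, where 1 member fell and 3 rose, and where Foxo1 had the opposite sign (0.15). With array weights 1 member rose. Under no alternative tried did Pax7 lose its call where it was fitted (log2 changes -0.64 to -0.29), and the fits that combine no filter with another setting were chosen after seeing the data. Id4, near 0, changed sign after median-ratio scaling (-0.0232), quantile normalization (-0.00893), small RNA removal (-0.00742), with array weights (-0.18) and with libraries left out in turn (-0.12 to 0.26, below 0 without knockout replicate 2 or control replicate 2), and Sall4-202 did without knockout replicate 1 (0.19), none of them called. Over all genes 5052 were called, 3417 rises and 1635 falls; with equal totals 9955, 9808 and 147; with a filter at 5 FPKM, where fewer genes were tested, 3344 called and 2164 rises; 2648 fell after quantile normalization and 2763 with array weights. The cause of the other shifts was not tested. Leaving out each library gave 3861 to 5850 called genes, 2621 to 3816 rises and 1165 to 2034 falls. With 7 libraries the exact test cannot go under p = 0.0571, so 0 of the 21 pairs could be called. Marker levels near 0 changed sign: Leydig after median-ratio scaling (-0.0286) and with libraries left out in turn (-0.0075 to 0.159), peritubular and stromal likewise (-0.0418, and -0.0522 to 0.191). The replicate block left the 4 member calls in place (log2 change of Zbtb16 -1.47, adjusted p = 0.00333) and called 4391 genes. Deviations from the group means correlated at 0.22, -0.12, -0.13 and -0.09 between same-numbered libraries. So few values cannot decide whether the numbers pair the libraries, which the labels do not say. With the block Glis3-201 was called (adjusted p = 0.0455). Pax7 rests on few fragments, and Sall4-203 and Glis3-202 were too low to test.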

Other observations

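Relatives of the members moved in both directions. In the list of SALL, GLI and GLIS genes and BTB zinc finger genes, 4 of 10 tested fell, 1 rose and 5 were not called, with a median log2 change of -0.40, where 12.1% of all genes fell and 25.3% rose with a median of 0.09. Sall2 rose to 5.00 ± 1.44 FPKM in the knockouts, against 0.426 ± 0.146 in the controls (adjusted p = 2.90e-05), while Sall1 fell to 8.45 ± 2.17 in the knockouts, against 14.55 ± 1.002 in the controls (adjusted p = 0.00586). Sall3 and Glis1 fell as well (adjusted p = 0.00141 and 0.00845), and Zbtb7a was the remaining fall. After median-ratio scaling, quantile normalization, and removal of small RNA genes before scaling, 5, 6 and 4 of the 10 fell and 1 rose each time. Over all genes tested at these settings, 2451 of 13473, 2648 of 13483 and 2038 of 13238 fell. With equal totals 3 of the 10 rose and 0 fell, and Glis1 had the opposite sign, where 9808 of all 13781 genes tested rose and 147 fell. Zbtb32, a close relative of Zbtb16, was at 32.8 ± 2.36 FPKM in the knockouts and 31.3 ± 2.22 in the controls and was not called (adjusted p = 0.567).

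Of 5 tested T-box and PAX relatives, 2 rose, 1 fell and 2 were not called, where 25.3% of all genes rose and 12.1% fell. With small RNA genes removed, and likewise with quantile or median-ratio scaling, 3 fell, T with Tbx3 and Tbx6. Pax8, a factor of thyroid and kidney development, rose to 9.26 ± 0.974 FPKM in the knockouts, against 2.36 ± 0.0996 in the controls, and Tbx4, a factor of hindlimb development, to 3.29 ± 0.161 in the knockouts, against 0.661 ± 0.0856 in the controls (adjusted p = 7.88e-06 and 1.06e-05). T, the gene for brachyury, fell to 1.24 ± 0.343 in the knockouts, against 3.99 ± 2.60 in the controls (adjusted p = 0.0220). Pax8, Tbx4 and T kept their direction and call with equal totals.

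Control libraries 3 and 4 were higher than control libraries 1 and 2 in Id4 (24.5 and 28.6, against 17.4 and 12.7 FPKM), in Eomes (2.92 and 2.27, against 1.19 and 0.886) and in Pax7 (1.14 and 1.29, against 0.847 and 0.630). They were lower in Zbtb16 over Glis3 (1.58 and 1.44, against 2.11 and 1.85). Kit ran the other way, at 33.3 and 30.2 FPKM in control libraries 3 and 4, against 59.9 and 60.3 in control libraries 1 and 2. These libraries were set apart after their values were seen, and no test was run on them.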
